A study of Rattus norvegicus with 4 samples.

Results

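Myelin is a stack of oligodendrocyte membrane wrapped around an axon, and a small group of proteins gives it its structure. The RNAs of 9 genes of that group were followed here, Mbp, Mag, Mog, Mobp, Cnp, Cldn11, Mal, Pmp2 and Opalin, in rat OPCs grown in culture. OPCs, or oligodendrocyte precursors, divide and then mature into the cells that make myelin. The genes were chosen by name, with earlier results of these data known. Their probes were found by matching each probe's RefSeq accession to a current symbol. All 9 genes were on the array, with 16 probes, among 45598 probes in all.

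Cells were taken from rat cortex at postnatal day 2 and grown for 3 days with bFGF and PDGF, which keep precursors dividing. They were then transfected by lipofection at 50 nM with a mimic of miR-125a-3p (group miR-125a-3p, 2 samples) or with a negative control RNA (group miR-neg, 2 samples). Total RNA was taken 48 h later and measured on 1-colour Agilent arrays, 1 array per sample. The labels call the cells oligodendrocytes at 2 days in vitro and give no strain, and independence of the samples is stated, but not whether they came from separate cultures or animals. The p-values therefore measure the spread between these samples, which may be technical. The mimic is a short synthetic RNA that acts as the mature microRNA once inside the cell.

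In myelin, Mbp holds the inner faces of the membrane together, Cldn11 forms the tight junctions between wraps, Mag and Mog sit on the innermost and outermost surfaces, and Cnp keeps cytoplasmic channels open. Cnp and Mbp appear early as a precursor matures, while Mog, Mobp, Mal and Opalin mark later stages. A microRNA lowers RNAs that pair with its seed, the stretch from base 2 to base 8. The mature strand that the mimic copies is shown because it is the agent compared here, with the seed in capitals (RefSeq, GRCr8 assembly, chr1:67350727-67350748, + strand).

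rno-miR-125a-3p: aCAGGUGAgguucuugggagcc

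Except where signals or sums are given, values below are log2 processed intensities of a probe, relative to the 75th percentile of its own array. On this scale 0 is a fairly bright probe and a difference of 1 is a doubling. Probes differ in how strongly they bind, so levels are compared between groups at 1 probe and never between genes. The number of probes clearly above background was 28115 and 26893 in miR-125a-3p, against 26312 and 26802 in miR-neg, and 0 spots were saturated. Of 14 precursor markers, 13 had a probe, and these 13 were above background on each of the 4 arrays. The arrays lay on 1 slide, and 1 axis of their position on it ran with the group, so the axis and the mimic cannot be told apart. The 8 detected myelin genes lay below 0 in their change after the mimic, where 47% of all features did, with a median change of -0.70 beside 0.01 for all 23155 features. In limma, 1 of the 8, Pmp2, passed a Benjamini-Hochberg adjusted p of 0.05 over all features, and it was lower. Of all features 0.687% passed in either direction and 0.307% passed as lower. At an unadjusted p under 0.05, 6 of the 8 were lower, where 8.84% of all features were. In bulk RNA, fewer maturing cells and less of an RNA per cell cannot be told apart.

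**Figure D1:**
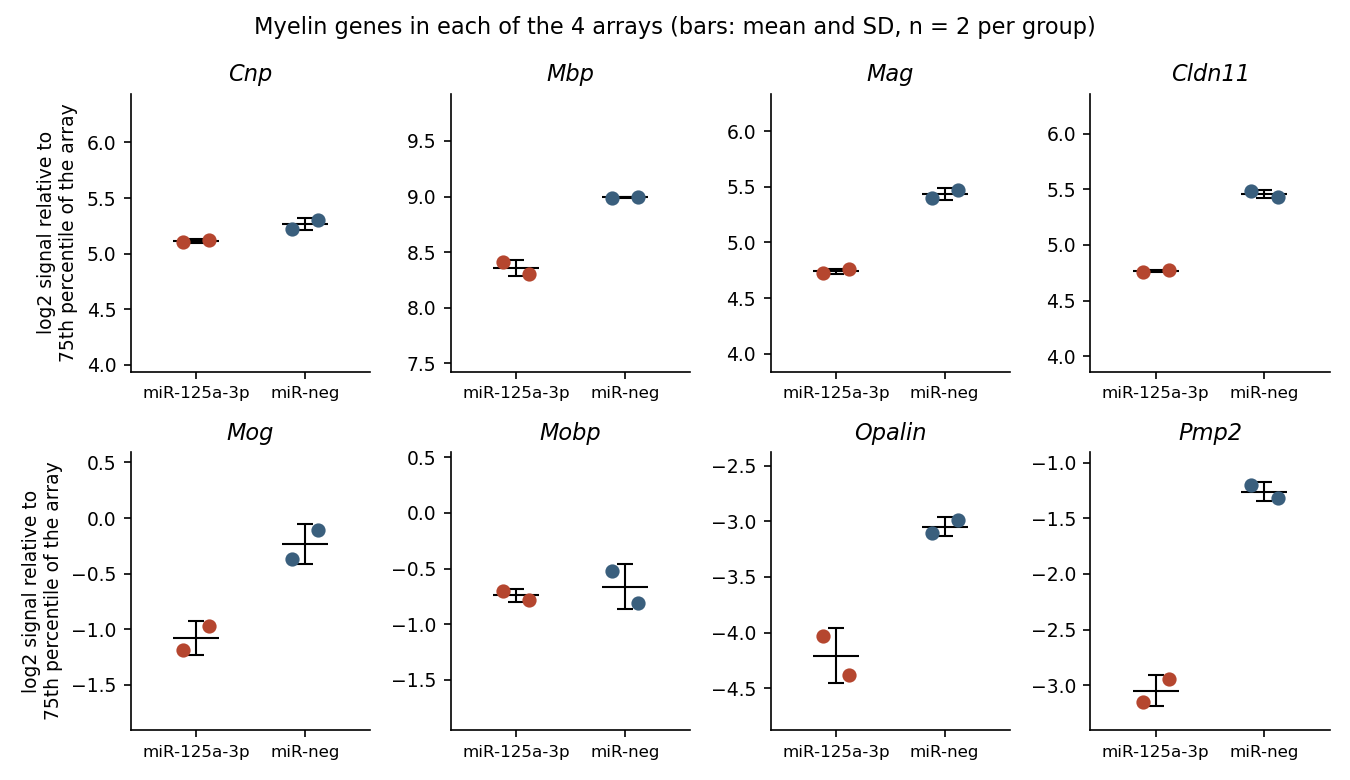
Log2 signal relative to the array's 75th percentile at the probe that stands for each gene, on the 2 miR-125a-3p arrays (left, red) and the 2 miR-neg arrays (right, blue), with the mean and SD (n = 2 per group). All panels span the same range, and both miR-125a-3p points lie below both miR-neg points in every panel except that of Mobp.

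Among the early proteins, Cnp had the difference closest to 0. Cnp, a phosphodiesterase of non-compact myelin, had log2 levels of 5.10 and 5.13 with the mimic (miR-125a-3p), against 5.23 and 5.31 in miR-neg. The groups did not overlap, as in 23.9% of all features, but the change was -0.15 (SE 0.08, 95% interval -0.37 to 0.06, adjusted p = 0.379 in limma). Of the 23155 features, 5250 had a lower change.

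Mbp, myelin basic protein, had processed signals of 238637 and 227362 on the miR-125a-3p arrays, against 379394 and 347978 on the miR-neg arrays. On the log2 scale this was 8.41 and 8.31 in miR-125a-3p, against 8.99 and 8.998 in miR-neg, so both arrays with the mimic were lower by far more than the arrays of a group differed. The change was -0.64 (SE 0.08, 95% interval -0.86 to -0.41), or 64.4% of the miR-neg level, and it did not pass (adjusted p = 0.0704 in limma). A second Mbp probe, designed on another RefSeq transcript of the gene, was dim, with signals of 92.04 and 75.02 in miR-125a-3p, against 107.2 and 99.97 in miR-neg. Its groups did not overlap either, with a change of -0.31 (SE 0.14). That value was -0.12 with normexp background correction, -0.47 without miR-125a-3p replicate 1 and -0.15 without miR-125a-3p replicate 2.

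Mag, a glycoprotein of the inner myelin surface that binds the axon, was at 4.72 and 4.76 in miR-125a-3p and at 5.40 and 5.47 in miR-neg. Its change was -0.70 (SE 0.08, 95% interval -0.91 to -0.48, adjusted p = 0.0611 in limma), and a second probe had -0.83. The brighter probe was spotted 10 times on each array, and the spots of 1 array varied by at most 4.02% (coefficient of variation). Before scaling between arrays, its 20 spots in miR-125a-3p ran between 17733 and 20449, and its 20 spots in miR-neg between 28794 and 32736. No spot of one group reached the other, but spots repeat the measurement of a sample and each group still holds 2 samples.

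Cldn11, the claudin of central myelin, was at 4.76 and 4.77 in miR-125a-3p, against 5.48 and 5.43 in miR-neg. The change was -0.69 (SE 0.08, 95% interval -0.90 to -0.48, adjusted p = 0.0598 in limma). Its 3 probes were at -0.69, -0.74 and -0.82, and each separated the groups. The 2 brighter ones were also spotted 10 times per array, and the spots of 1 array varied by at most 2.39% (coefficient of variation).

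The later proteins differed more among themselves. Mog, a surface protein of the outermost wrap, was at -1.18 and -0.97 in miR-125a-3p, against -0.36 and -0.11 in miR-neg. Its change was -0.84 (SE 0.14, 95% interval -1.22 to -0.46, adjusted p = 0.0929 in limma), and its second probe, at -0.70 (-0.44 with normexp), also separated the groups. Opalin, a transmembrane glycoprotein of mature oligodendrocytes, was dim, at -4.03 and -4.38 in miR-125a-3p and -3.11 and -2.99 in miR-neg. All 4 of its signals were well above background, and its change was -1.16 (SE 0.15, 95% interval -1.57 to -0.75, adjusted p = 0.0704 in limma), or 44.8% of the miR-neg level. With normexp background correction the Opalin change was -0.58 (adjusted p = 0.00273).

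Mobp, a small basic protein of compact myelin, was at -0.70 and -0.79 in miR-125a-3p and at -0.52 and -0.81 in miR-neg at its brightest probe. The miR-neg values lay on both sides of the miR-125a-3p values, so the groups overlapped, with a change of -0.08 (SE 0.13, 95% interval -0.43 to 0.27, adjusted p = 0.778 in limma). Without miR-neg replicate 1 the Mobp change was 0.06, and without miR-neg replicate 2 it was -0.22. The other Mobp probes were at -0.39 and -0.44 and did separate the groups, and miR-neg replicate 1 was the highest of the 4 arrays at all 3 probes. Without that array these 2 probes were at -0.16 and -0.21, and without miR-neg replicate 2 at -0.62 and -0.68. The third was at -0.26 without miR-125a-3p replicate 2. With normexp they were at -0.25 and -0.18. Mal, a proteolipid of myelin membrane traffic, was well above background on 0 of 4 arrays. Its signals were 8.94 and 5.48 in miR-125a-3p and 9.23 and 3.62 in miR-neg, so no change is given for it.

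Pmp2, a fatty acid-binding protein known best from peripheral myelin, fell most among these genes. Its signals were 79.2 and 93.0 on the miR-125a-3p arrays, against 325 and 272 on the miR-neg arrays, all well above background. On the log2 scale Pmp2 was at -3.15 and -2.95 in miR-125a-3p and at -1.20 and -1.32 in miR-neg. Pmp2 thus fell to 28.9% of the miR-neg level, by 1.79 on the log2 scale (SE 0.11, 95% interval -2.09 to -1.49, adjusted p = 0.0378 in limma, n = 2 per group). Only 31 of the 23155 features had a lower change. Pmp2 has 1 probe on the array, so no second probe bears on it. Its call was lost when any 1 array was left out and with the replicate number as a block (adjusted p = 0.0862 in limma). It was also lost with no filter on dim probes (adjusted p = 0.229 in limma). The same settings took away every call over all features, so this loss was not particular to Pmp2. With normexp the Pmp2 change was -1.16, still past the threshold (adjusted p = 0.000148 in limma).

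**Figure D2:**
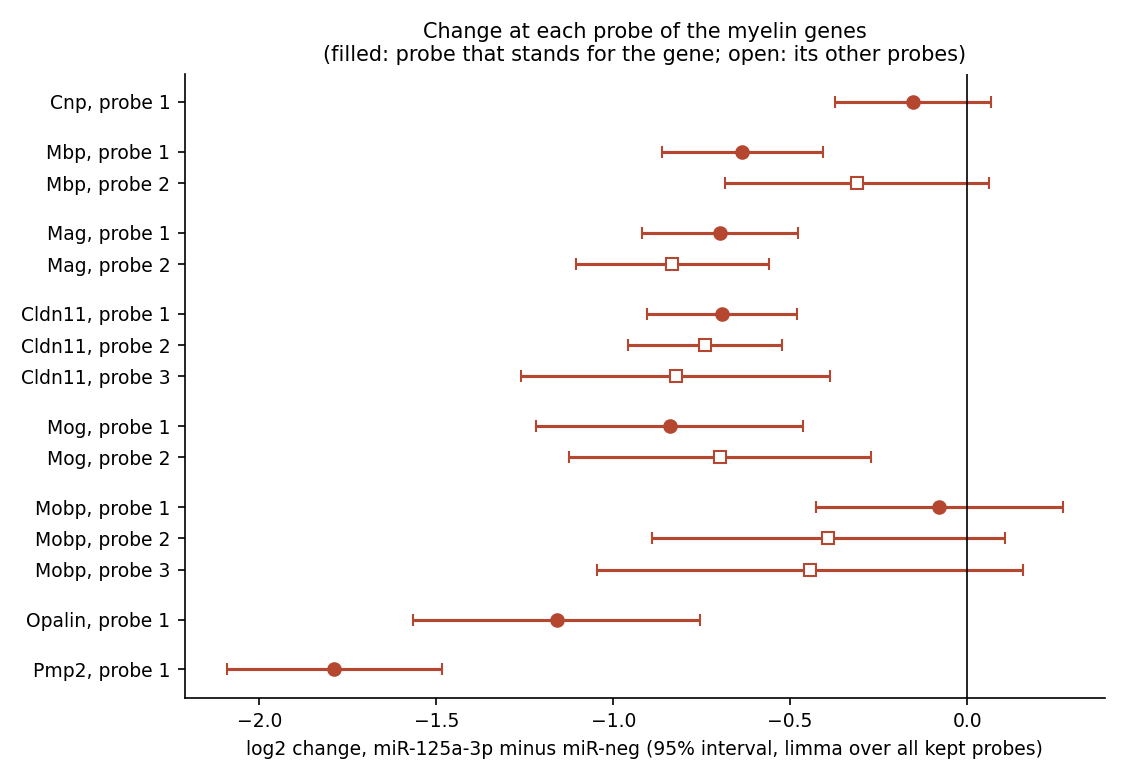
Log2 change (miR-125a-3p minus miR-neg) with its 95% interval at each of the 15 probes well above background, from limma over all kept probes, filled where the probe stands for its gene. Intervals of Cnp, of all Mobp probes and of the dimmer Mbp probe reach across 0, and those of the other 10 probes do not.

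Probes of 1 gene were then set against each other. In the fit over all kept probes 1 of the 15 passed, the Pmp2 probe, against 0.283% of kept probes that passed as lower. Over the 15 probes, 14 had both miR-125a-3p arrays below both miR-neg arrays, where 24.3% of all kept probes did, and the exception was the brightest Mobp probe. The difference in change between the brightest probe of a gene and each of its other probes was tested with limma over all 3242 such pairs on the array. In that test 0 of the 7 myelin pairs passed, as did 0 of all pairs (0%), with 2 of the 7 and 210 of all pairs at an unadjusted p under 0.05. For Mbp the change of the bright probe minus that of the dim one was -0.32 (SE 0.11, 95% interval -0.63 to -0.02, adjusted p = 0.735). For Mobp the change of the bright probe minus that of the second was 0.31 (95% interval 0.04 to 0.59, adjusted p = 0.72). Against the third it was 0.37 (95% interval -0.03 to 0.76, adjusted p = 0.738). The pairs of Mag, Mog and Cldn11 differed by between -0.14 and 0.14, each with an interval that includes 0. The intervals are wide enough that equal change at all probes of a gene is not shown.

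Read by stage, the early proteins Cnp, Mbp, Mag and Cldn11 had a median change of -0.66, with a range from -0.70 to -0.15. The detected late proteins Mog, Mobp and Opalin had a median of -0.84, with a range from -1.16 to -0.08. The gap between these medians was 0.18, and each group held 1 gene with little change, Cnp and Mobp. For Mobp this holds at its brightest probe only, as its other probes were at -0.39 and -0.44. On single arrays, the median level of the early genes minus that of the late genes had an SD of 0.18 within a group. That SD is a spread of levels and does not measure the error of the gap in changes. The gap was 0.05 without miR-125a-3p replicate 1 and 0.31 without replicate 2, and 0.32 without miR-neg replicate 1 and 0.07 without replicate 2. With normexp the order turned round, with medians of -0.67 for the early and -0.58 for the late proteins. Leaving Mag and Cldn11 out of the early proteins, whose place is less settled, gave an early median of -0.39.

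**Figure D3:**
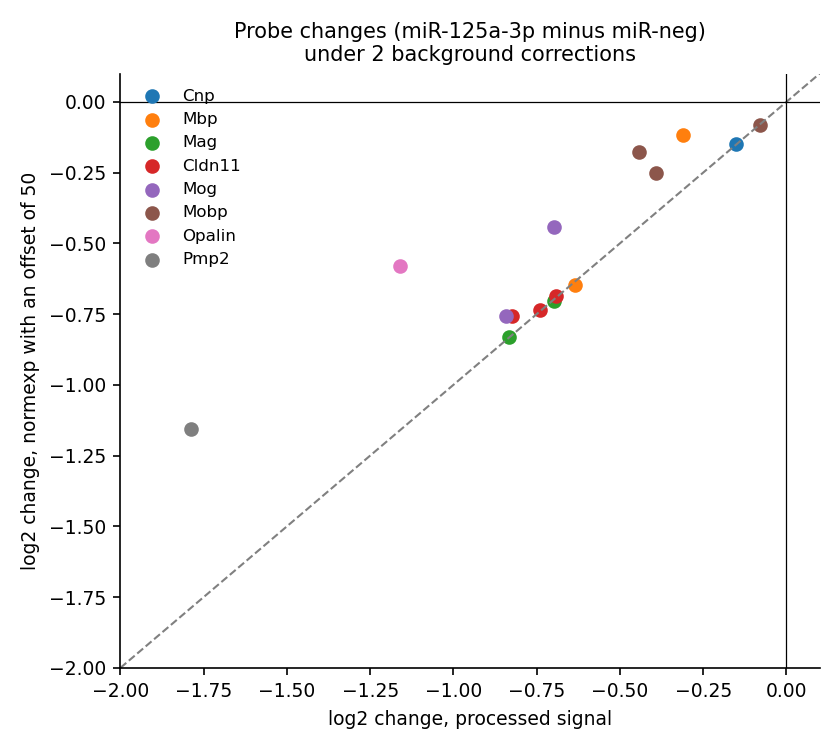
Log2 change (miR-125a-3p minus miR-neg) of the 15 probes computed from the processed signal (x axis) and after normexp with an offset of 50 (y axis), coloured by gene, with a dashed line of equality. Bright probes lie on the line, and 6 dim ones, among them those of Pmp2 and Opalin, lie above it.

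The calls differed between settings of the test. Of the 8 genes, 6 passed with normexp, where 3.58% of all features passed in this direction, and 6 with a variance trend, where 4.39% did. These 6 were Mbp, Mag, Cldn11, Mog, Opalin and Pmp2 in both cases, and the same 6 passed at an adjusted p of 0.1, where 2.03% of all features passed as lower. With quantile normalization only Pmp2 passed, where 0.199% of all features passed as lower. On probes well above background on all 4 arrays, 5 of the 8 passed and Mog did not, where 1.51% of all features passed as lower. Cnp and Mobp passed in 0 of 17 settings. Normexp made the change over 1.5 times smaller at 6 of 15 probes. The changes of Mag and Cldn11 stayed between -0.77 and -0.66 in all 17 settings.

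The promoters of 7 of the 9 genes were in the RefSeq table of GRCr8, with 2 starts for Mbp. Windows of 250 bases before the start were searched on both strands for ACAANG, a form of the motif of SOX factors such as Sox10, and for CTGGNAC, a form of the motif of Myrf, both regulators of myelin genes. The Myrf form had 1 match each in Mag, Opalin, Cldn11, Mal, Cnp and the upstream Mbp window, and was in 14.8% of all 33469 windows. The SOX form was in 36.9% of all windows, with 8 matches in Mobp, a count reached by 10 windows. It had 3 matches in Opalin and in the downstream Mbp window, 2 in Mag and 1 in Cnp. Cldn11, Mal and the upstream Mbp window had 0. The windows of 3 genes are shown, Mag, with a change of -0.70, and the genes closest to 0, Cnp (-0.15) and Mobp (-0.08 at its brightest probe). Capitals mark matches of either motif. They lie at chr1:95291045-95291294 (- strand, Mag), chr10:86011254-86011503 (+ strand, Cnp) and chr8:128746982-128747231 (+ strand, Mobp).

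Mag: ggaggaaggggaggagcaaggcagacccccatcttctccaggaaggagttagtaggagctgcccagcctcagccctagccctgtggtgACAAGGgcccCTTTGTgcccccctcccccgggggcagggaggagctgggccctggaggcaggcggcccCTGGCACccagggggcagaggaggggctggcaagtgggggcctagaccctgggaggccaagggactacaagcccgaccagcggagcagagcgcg
Cnp: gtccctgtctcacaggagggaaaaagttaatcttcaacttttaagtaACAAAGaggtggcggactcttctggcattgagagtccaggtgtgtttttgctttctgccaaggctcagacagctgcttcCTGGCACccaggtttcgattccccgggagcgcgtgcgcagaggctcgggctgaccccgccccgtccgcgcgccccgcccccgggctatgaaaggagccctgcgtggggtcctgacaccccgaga
Mobp: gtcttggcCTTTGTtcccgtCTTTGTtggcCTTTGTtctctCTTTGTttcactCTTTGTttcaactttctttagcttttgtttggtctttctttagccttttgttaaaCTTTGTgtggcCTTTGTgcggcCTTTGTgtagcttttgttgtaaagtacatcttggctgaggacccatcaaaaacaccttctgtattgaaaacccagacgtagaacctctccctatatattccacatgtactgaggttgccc

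Mag and Cnp each hold a CTGGCAC match, 94 and 124 bases before the start. Whether such matches bear on the changes was not tested. The 8 SOX matches of Mobp are repeats of CTTTGT on the other strand. A match of letters is no evidence that a factor binds there.

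Other genes of the myelin sheath and of maturing oligodendrocytes were taken from a list of 62, of which 50 were tested. Of these, 4 fell, 0 rose and 46 did not pass, where 0.307% of all features passed as lower. In all, 37 of the 50 lay below 0, where 47% of all features did, with a median change of -0.24. With quantile normalization 2 passed, and 0 passed with the replicate number as a block, with no filter on dim probes or without any 1 array, settings in which limma made 0 calls over all features (17 to 22 genes of the list had an unadjusted p under 0.05). Septin4, a septin of the myelin cytoskeleton, fell by 1.18 (SE 0.07, adjusted p = 0.0378 in limma). The others that fell were the metalloprotease gene Adamts4 (-1.49), the aspartoacylase gene Aspa (-1.55) and the receptor gene Gpr37 (-1.01). Of the 6 with the next smallest p-values, none of which passed, 5 lay below 0, Ninj2 (-0.66), the gap junction genes Gjb1 (-0.64) and Gjc3 (-1.03), the tubulin gene Tubb4a (-0.58) and Tppp (-0.66), which binds microtubules. The sixth, Pmp22, a membrane protein of peripheral myelin, was at 0.63 (adjusted p = 0.0752). The galactolipid enzyme genes Ugt8 (0.02) and Fa2h (-0.02), singled out after their values were seen, were close to 0.

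**Figure D4:**
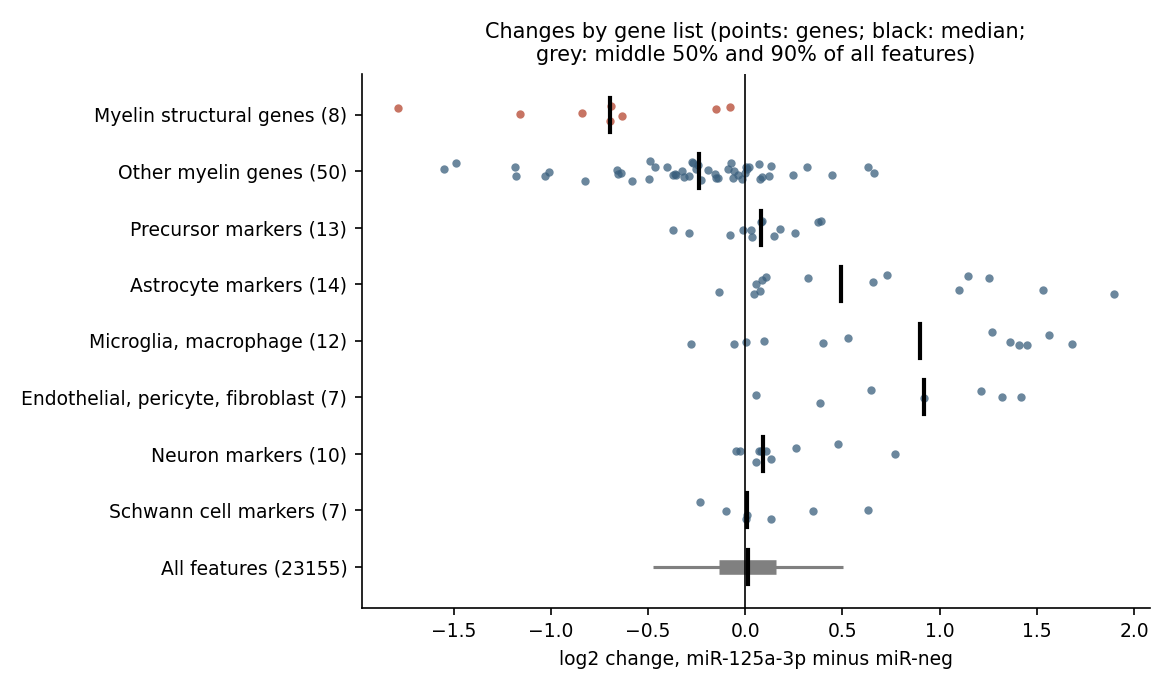
Log2 change (miR-125a-3p minus miR-neg) of every tested gene in each list (points, with the median in black and the number of genes in brackets) and of all 23155 features (grey, middle 50% and middle 90%). The 8 myelin genes are centred at -0.70, the astrocyte, microglial and vascular lists have medians above 0, and precursor, neuron and Schwann cell markers are centred near 0.

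Markers of other cells had median changes at or above 0, and their part in the myelin values was not tested. Precursor markers had a median change of 0.08 with 0 of 13 past the threshold in limma, while 4 had an unadjusted p below 0.05, as did 19.6% of all features. The smallest p-values were those of Pdgfra (-0.37) and Neu4 (0.38). Astrocyte markers had a median of 0.49, with 8 of 14 higher at an unadjusted p of 0.05. Of all features, 19.6% were under that p in either direction, 8.84% as lower and the remainder of the 19.6% as higher. Of these 14 markers 1 rose, Aldh1l1 (1.90), where 0.38% of all features passed as higher, and Apoe was at 1.10 without passing. Their summed signal, not scaled between arrays, was 154651 and 159457 in miR-125a-3p, against 142055 and 137993 in miR-neg. Most of that sum came from Aldoc, with a change of 0.10 (adjusted p = 0.534 in limma). Microglial markers had a median of 0.90, with 8 of 12 higher at that p. Of the 12, 10 were well above background on all 4 arrays, while C1qc (1.68) and Cd14 (0.53) were so on 2. A probe was kept if well above background on 2 arrays, so it could enter through the group where it was higher. The count and median are therefore not independent of that filter. Of these 12 markers 1 rose, C1qa (1.45), while Aif1 at 1.56 did not pass. The unscaled sum of the 12 was 3203 and 3668 in miR-125a-3p, against 3001 and 3121 in miR-neg. Most of it came from Cx3cr1 (-0.06), P2ry12 (0.001) and Cd68 (-0.28), none of which passed. Vascular and fibroblast markers had a median of 0.92, with 5 of 7 higher at that p. Only 5 of the 7 were well above background on all 4 arrays. Pdgfrb, whose change is the median, was so on 2 arrays and Col3a1 on 3, so the same limit holds for this count and median. Of these 7 markers 1 rose, Tagln (1.21), while Col3a1 at 1.32 did not pass, and their sum was 738 and 869 in miR-125a-3p, against 472 and 427 in miR-neg. The endothelial markers Pecam1 and Cldn5 were not well above background on at least 2 arrays. Neuron markers had a median of 0.09 with 0 of 10 past the threshold in limma. Of the 10, 3 were below an unadjusted p of 0.05, where 19.6% of all features were. Snap25 (0.48) and Reln (0.77) had the smallest p-values. The sum was 11854 and 12137 in miR-125a-3p, against 10626 and 10479 in miR-neg.

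Because Pmp2 is best known from Schwann cells, the myelinating cells of peripheral nerve, their markers were read beside it. Of 12 listed, 7 were tested, with a median change of 0.01 and 0 past the threshold in limma. Of the 7, 1 gene had an unadjusted p under 0.05, as did 19.6% of all features. That gene was Pmp22, given above, and Cadm2 was at -0.23. Their sum was 127793 and 135412 in miR-125a-3p, against 137841 and 142250 in miR-neg, and most of it came from the probe of Sox2, which precursors also express. The Schwann cell markers Dhh and Cdh19 were not well above background on at least 2 arrays.

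The genes whose values over the 4 arrays lay closest to those of Pmp2 and Mbp were found by Euclidean distance after each gene's mean was subtracted, over 11668 genes with a symbol. For Pmp2 they were Fhdc1 (distance 0.0975), Serpinb1a (0.145), Htra1 (0.178), Mylk (0.229) and Aspa (0.238). For Mbp they were Ikbkg (0.0251), Fnip2 (0.0281), Apoa1 (0.0308), Dcbld2 (0.031) and Atpaf1 (0.0414). With 4 arrays in 2 groups, a small distance says little more than a like change.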

How the data were processed

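Single-colour Agilent arrays were read for 4 samples, 2 per group. The deposited scanner files hold spot intensity values that Agilent Feature Extraction 10.7.3.1 had background-subtracted, per the file headers. The deposited value table holds log2 values, which equalled the values computed here within 0.01 for 100% of probes after a constant shift per array. Its column medians were -4.07 and -4.13 for miR-125a-3p and -4.06 and -4.14 for miR-neg.

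From the processed intensity, log2 values minus each array's 75th percentile were taken after control spots and 65 probes with flagged spots were left out. Spots of a probe were averaged. The 27250 probes well above background on at least 2 arrays were kept, and the brightest probe stood for its gene, giving 23155 features. Accessions were matched to symbols through the RefSeq table of GRCr8, which named 21109 probes. Differences are miR-125a-3p minus miR-neg, tested two-sided with limma 3.58.1 in R 4.3.3 and Benjamini-Hochberg adjustment at 0.05. The fit was tested on simulated data. An exact permutation test of 2 arrays against 2 cannot go below p = 0.333.

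The members and lists were chosen with earlier results of these data known. Named were all members, and listed myelin genes past the threshold with the next 6 by p. In each marker list the genes past the threshold and those with the 2 smallest p-values were named. Named outside this rule were Ugt8, Fa2h, the markers behind most of a summed signal, and Pecam1, Cldn5, Dhh and Cdh19. Replicate numbers were checked for pairing: deviations of same-numbered arrays correlated at 0.05, and the labels name no shared culture, so no pairing was used. The files hold no mean spot signal, so normexp (offset 50) was run on median signals, a choice made after seeing the data. The values of 1 marker gene are not reported here.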

Additional observations from a re-analysis of the deposited data

How the results depend on the processing

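Each of the 8 genes was below 0 under all 17 settings, except Mobp, which was at 0.0638 without miR-neg replicate 1, at its brightest probe too, with a range of -0.221 to 0.0638 when 1 array was left out. The number of calls depended on the setting. Normexp on median signals gave 1601 calls over all features, 6 of the 8 genes, 10 of the 15 probes and 16 of the other myelin genes. A variance trend gave 2037, 6, 10 and 21 in the same order, and probes above background on all 4 arrays gave 601, 5, 7 and 10. At an adjusted p of 0.1 there were 991 calls over all features, 6 of the 8 genes and 11 other myelin genes. The calls among the 8 genes and 15 probes were all lower. Of the other myelin calls, 14 were lower and 2 higher with normexp, and 19 and 2 with the variance trend. The split was 9 and 1 with probes above background on all 4 arrays, and 9 and 2 at an adjusted p of 0.1. Of all features, 3.58%, 4.39%, 1.51% and 2.03% passed as lower in these settings, in that order. Quantile normalization left 83 calls over all features and 2 other myelin genes, and the mean of a gene's probes left 2 other myelin genes. With no filter on dim probes limma made 0 calls in any of these sets, which then held more members, Mal among them. At an unadjusted p under 0.05 there were 3963 of 39455 features, 6 of 9 genes, 22 of 56 other myelin genes and 10 of 16 probes. With the replicate block limma also made 0 calls. There, 3948 of 23155 features, 6 of 8 genes, 21 of 50 other myelin genes and 12 of 15 probes had an unadjusted p under 0.05. Blocking on the remaining slide axis is the same fit as the replicate block. Leaving out any 1 array gave between 0 and 0 calls in each set, with 2767 to 4124 features and 6 of the 8 genes at an unadjusted p under 0.05, on the assumption that the remaining array of a group has the spread of the other pair. At the same p it left 17 to 20 other myelin genes and 10 to 11 probes. The differences between probes had 0 calls in every setting run. The early minus late gap was 0.45 with Mag and Cldn11 left out, and -0.088 with normexp. Normexp on mean signals was not run. With 2 arrays per group, the number of arrays limits the precision, and 6 of the dim probes had changes over 1.5 times smaller with normexp. Causes were not tested.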
